A study of Mus musculus with 12 samples.

Results

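Cytosolic ribosomal protein genes encode the protein part of the ribosome outside mitochondria, and their transcripts were followed here in heart and cerebrum of mice given phosphatidylserine (PS) or vehicle. Members were the rows of the deposited table whose single gene symbol names a ribosomal protein of the small subunit (Rps names and Rpsa) or of the large subunit (Rpl names, Rplp0, Rplp1 and Rplp2). The rule took 377 of 21218 rows with 1 gene symbol and covered 67 genes, 42 of the large subunit with 264 rows and 25 of the small subunit with 113 rows. A row is 1 transcript cluster of an Affymetrix whole-transcript array, and its value is an expression level on a log2 scale, so a difference of 1 is a 2-fold difference. Mice were C57BL/6J animals carrying a humanized knock-in FDloxP/+ genotype, given in the labels for every array, heart and cerebrum, PS and vehicle alike. FD stands for familial dysautonomia, an inherited disorder of sensory and autonomic neurons. PS at 200 mg/kg, or the medium-chain triglycerides (MCT) that served as its vehicle and control, was given by gavage for 3 months from 4 months of age. The 4 groups, cerebrum MCT, cerebrum PS, heart MCT and heart PS, each had 3 arrays that the labels call biological replicates, 12 arrays in all, and the question was what PS does to transcript levels in these mice. The labels disagree on 2 points that limit the groups: one description speaks of 6 FD mice and another of 3 FD and 3 wild-type mice, and the dose is given both as every other day and per day. Sex is not given, and the labels do not say whether heart and cerebrum of the same number came from the same mouse.

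A ribosome joins a small subunit, which decodes the messenger RNA, to a large subunit, which forms peptide bonds, and each subunit holds many proteins, most in single copy. Transcripts for these proteins are among the most abundant in most tissues, and most of them begin with a short run of pyrimidines, the terminal oligopyrimidine (TOP) motif, through which the growth-sensing kinase complex mTORC1 and the RNA-binding protein Larp1 adjust their translation and stability. Unassembled ribosomal proteins are degraded, so protein and transcript levels need not move together, and the arrays measured transcripts. Many ribosomal protein genes have processed pseudogenes with nearly the same sequence, and array rows can share signal with these copies.

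The sequences around the start sites are shown for 9 members, because most matched members hold a run of C and T there. Only members with such a run were taken for printing. RefSeq promoters on GRCm38.p6, each of 250 bases before to 50 after the start, were matched by symbol for 54 of the 67 genes, with 64 promoters. Rpl17, Rpl21, Rpl23a, Rpl29, Rpl3, Rpl30, Rpl36, Rpl7, Rpl8, Rplp1, Rps14, Rps20 and Rps29 were not matched. Windows of 30 bases are printed 5′ to 3′ on the gene's strand, with the longest run of 8 or more C or T that opens with C in capitals. The first 4 are genes with at least 1 row that fell in cerebrum, the next 3 had some of the largest differences in heart, and the last 2 stayed near the MCT level in heart.
Rpl5 (chr5:107900498-107900527, plus strand): cctacagccaCTCTTTCTCacgtcgcttgc
Rpl9 (chr5:65391382-65391411, minus strand): cgaaagacgttCTCTCTTTgccccatctac
Rps19 (chr7:24884624-24884653, plus strand): cccgtcgttCCCTTTCCCCTggctggcagc
Rps25 (chr9:44407684-44407713, plus strand): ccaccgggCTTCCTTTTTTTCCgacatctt
Rps12 (chr10:23787181-23787210, minus strand): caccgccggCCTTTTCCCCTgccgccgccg
Rps15a (chr7:118116143-118116172, minus strand): gcccggcccaCTCTCTTTCTgccatcttcc
Rps27 (chr3:90213631-90213660, minus strand): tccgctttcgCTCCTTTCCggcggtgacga
Rpl28 (chr7:4792953-4792982, plus strand): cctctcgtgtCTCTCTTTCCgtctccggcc
Rps6 (chr4:86857349-86857378, minus strand): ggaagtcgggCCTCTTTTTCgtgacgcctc

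The run opens at base -2 from the annotated start in Rps27 and Rpl28, at -1 in Rps6, at 9 in Rps12, at -15 in Rps15a, at -20 in Rpl5, at -22 in Rps25, at 32 in Rpl9 and at -43 in Rps19, where 1 is the first transcribed base. Runs that far from the annotated start are not at the first base, where a TOP motif lies. Within 50 bases either side of the start on the sense strand, such a run of C and T was found in 51 of 64 member promoters (79.7%) and 45 of the 54 matched genes, against 9450 of 32851 promoters in the table (28.8%). On the other strand the member share was 20.3% and the share of all promoters 31.6%. Over the whole 300 bases on either strand, the motif CTTCCGG, a core bound by Ets-family factors, was in 39.1% of member promoters and 8.86% of all. The Sp1-type motif GGGCGG was in 60.9% and 35.7%, and the TATA-box motif TATAAA in 9.38% and 13.6%. These matches describe letters in a window and are not measured sites. In the PS comparison in cerebrum, the median log2 difference was -0.24 over the 44 tested genes with a run and -0.33 over the 9 without. In heart it was -0.41 over 45 genes with a run and -0.55 over 9 without.

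The tissue labels were borne out by marker genes: 6 of 6 measured heart muscle markers were higher in heart and 7 of 7 measured brain markers were higher in cerebrum in MCT mice, each past the threshold used below. Several arrays stood apart from their groups. Xist, which is transcribed from the inactive X chromosome of females, read 8.92 to 9.86 on all 3 heart PS arrays and on cerebrum PS 1 and 3, and 3.32 to 4.03 on cerebrum PS 2 and all 6 MCT arrays. In heart, treatment and this sex pattern therefore cannot be told apart, and in cerebrum they differ on 1 array. Heart PS 2 and cerebrum PS 2 had opposite patterns, with Xist at 9.13 and 3.32 and the Y-linked gene Eif2s3y at 3.49 and 7.25. As labelled, these 2 arrays therefore do not come from 1 mouse. Markers of striatum neurons were lower in cerebrum PS: all 13 measured of 17 listed were below the MCT mean, 4 of them past the threshold, and their summed log2 level was 119.73 to 122.02 in MCT against 88.46, 88.57 and 111.66 in PS 1, 2 and 3. Among 7 atrial markers, Myl7, Myl4 and Sln were highest on heart MCT 3 and heart PS 3 within their groups, with Myl7, the atrial myosin light chain, at 4.37, 5.08 and 8.53 in MCT 1, 2 and 3 and at 4.16, 4.17 and 6.80 in PS 1, 2 and 3. Nppa, the atrial natriuretic peptide gene, was lowest on those arrays, at 11.34, 11.51 and 10.44 in MCT and 11.31, 12.31 and 10.71 in PS, Bmp10 read 3.12 to 3.51 on all 6, and Dkk3 was highest on PS 2 at 7.59. The summed level of the 7 atrial markers was 44.85, 45.56 and 50.68 in heart MCT and 43.09, 47.77 and 49.14 in heart PS. The summed level of 7 lymphocyte markers was 30.71 to 33.35 in heart MCT and 29.64 to 32.24 in heart PS, and its members did not move together. Ms4a1, a B-cell surface protein, read 5.15 and 4.96 in heart MCT 1 and 2 against 3.64 to 3.77 in the other 4 heart arrays. Cd79b, another B-cell gene, read 6.42, 6.47 and 5.81 in heart MCT against 5.18, 5.87 and 5.17 in heart PS, and Cd2 was highest on MCT 1 at 4.21. The T-cell gene Cd3e read 5.12, 4.97 and 5.32 in heart MCT against 5.31, 5.95 and 5.42 in heart PS, Cd3g was highest on PS 2 at 4.69, and Cd3d and Cd79a stayed between 3.94 and 4.33. In tissue RNA, fewer cells of a type and less RNA per cell cannot be told apart.

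Ribosomal protein transcripts gave strong signals. The mean of a member row over the 12 arrays ran from 4.76 to 12.25 with a median of 10.46, against a median of 5.98 over all rows with 1 symbol, and 317 of the 377 rows were in the top 10 percent. Rplp2, a protein of the large subunit's stalk, had 1 row, the dimmest of all, which passed the filter on low values only among the heart arrays and is given no tissue comparison. The remaining 66 genes had a brightest row that was tested in every comparison. 55 genes had several rows, up to 41 for Rpl21 and 24 for Rpl29, and where 1 value per gene is given it is that of its brightest row. 17 rows shared all 12 values with another row, which leaves 367 distinct rows.

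Across the family, 1 array per tissue gave the highest level of most members, and it was an MCT array in both. Each gene was set against its mean over the 3 MCT arrays of the same tissue, and the median over the 67 genes was taken for each array. In cerebrum these medians were 0.03, 0.13 and -0.17 in MCT 1, 2 and 3 and -0.26, -0.33 and -0.12 in PS 1, 2 and 3. The MCT 3 array lay among the PS arrays, below PS 3. Cerebrum MCT 2 held the highest level of 57 of the 67 genes, and cerebrum PS 2 the lowest of 38. In heart the medians were 0.20, 0.11 and -0.29 in MCT 1, 2 and 3 and -0.33, -0.42 and -0.38 in PS 1, 2 and 3. Heart MCT 3 was thus nearer to the 3 PS arrays than to the other MCT arrays. Heart MCT 1 held the highest level of 58 of the 67 genes, and heart PS 2 the lowest of 32. Medians over all rows with 1 symbol stayed between -0.03 and 0.01 on each of the 12 arrays. In heart PS the small-subunit genes were further below the MCT mean, at -0.52, -0.48 and -0.44, than the large-subunit genes, at -0.28, -0.37 and -0.32, and heart MCT 3 had a small-subunit median of -0.37.

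**Figure D1:**
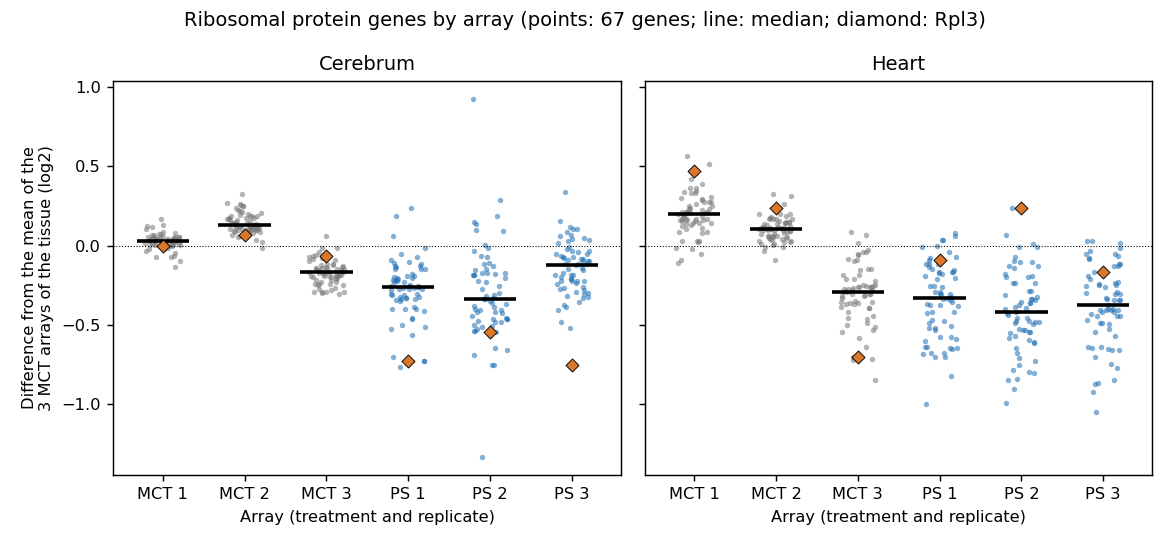
Log2 level of each of the 67 genes (brightest row) minus its mean over the 3 MCT arrays of the tissue, by array, with the median over genes as a line and Rpl3 as a diamond. Heart MCT 3, with a median of -0.29, sits beside the heart PS arrays, and cerebrum MCT 3, at -0.17, lies between cerebrum PS 1 and PS 3.

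In cerebrum, most member transcripts were below the MCT level in PS mice by a small amount, and 5 genes had rows that fell past the threshold: Rpl3, Rpl5, Rpl9, Rps19 and Rps25. Of 375 tested member rows, 278 had a log2 difference (PS minus MCT) below 0, or 74.1%, against 54.7% of all 12733 rows tested, and the median was -0.20 against -0.03 over all. 15 member rows fell (limma, Benjamini-Hochberg adjusted p under 0.05 over all rows tested), which is 4% of them against a background of 3.93% lower and 5.76% in either direction, so the share was close to that of all rows. 0 member rows rose against 1.83% of all rows, and at an unadjusted limma p under 0.05 there were 130 member rows in either direction, against 29.0% of all rows. PS and MCT arrays did not overlap, with PS lower, in 102 rows, 27.2% against 20.4% of all rows, and with PS higher in 3 rows, 0.8% against 12.4%. By brightest row, 59 of 66 genes were below 0 with a median of -0.24.

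Rpl3, a core protein of the large subunit that reaches towards its peptidyl transferase centre, read 11.44, 11.51 and 11.38 in cerebrum MCT 1, 2 and 3 and 10.72, 10.90 and 10.69 in PS 1, 2 and 3. All 3 PS arrays were below all 3 MCT arrays with a gap wider than the spread within either group. The log2 difference was -0.67 ± 0.09 (SE, n = 3 against 3; limma adjusted p = 0.0182), and all 6 Rpl3 rows, 5 of them distinct by value, fell, by log2 differences of -0.75 to -0.64. Rpl5, which carries the smallest ribosomal RNA of the large subunit and can bind Mdm2 when unassembled, read 10.04, 10.09 and 9.86 in MCT and 9.27, 9.49 and 9.48 in PS. The groups were again apart, with a difference of -0.58 ± 0.10 (limma adjusted p = 0.0342), and 4 of its 5 rows fell.

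Rpl9, a large-subunit protein near the stalk base, read 11.17, 11.22 and 10.90 in cerebrum MCT and 10.57, 10.44 and 10.71 in PS, a difference of -0.52 ± 0.11 (limma adjusted p = 0.046). MCT 3 was the lowest MCT array and PS 3 the highest PS array, without overlap. Of the 8 Rpl9 rows only this one was past the threshold, and the other 7 had limma adjusted p-values of 0.0503 to 0.0779 at similar differences. Rps19, a small-subunit protein whose human gene is mutated in Diamond-Blackfan anaemia, had 1 row and read 8.67, 8.95 and 8.58 in MCT and 8.17, 8.27 and 8.25 in PS (-0.50 ± 0.11, limma adjusted p = 0.0443). Rps25, a small-subunit protein, had 3 of 6 rows that fell, with differences of -0.53 to -0.51 and limma adjusted p-values of 0.0383 to 0.0472. Its brightest row read 11, 11.05 and 10.78 in MCT and 10.64, 10.50 and 10.73 in PS and did not pass (-0.32, limma adjusted p = 0.0976), though the groups did not overlap there either.

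Other large differences in cerebrum did not pass. A row of Rps9, a small-subunit protein at the messenger RNA entry, read 9.62, 9.6 and 9.52 in MCT and 8.88, 8.25 and 9.28 in PS (-0.78 ± 0.23, limma adjusted p = 0.0814), with PS 2 far below PS 3. The second Rps9 row differed by only -0.30. A row of Rps3a1 had a difference of -0.73 (limma adjusted p = 0.0944) against -0.33 in the brightest Rps3a1 row. Rps12 read 8.53, 8.71 and 8.18 in MCT and 7.71, 7.72 and 8.12 in PS (-0.62 ± 0.17, limma adjusted p = 0.0636).

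A few members were at or above the MCT level. Rpl28, a large-subunit protein, read 11.02, 11.13 and 10.71 in MCT and 11.19, 11.24 and 11.29 in PS, so that all PS arrays were above all MCT arrays, with a difference of 0.29 ± 0.12 that did not pass (limma adjusted p = 0.156). Rpl34 averaged 0.28 ± 0.25 higher (limma adjusted p = 0.49), which came from PS 2 at 9.31 while PS 1 and 3, at 8.26 and 8.43, lay within the MCT range of 8.29 to 8.5 or just below it. A row of Rps2 had the largest positive difference, 0.32 (limma adjusted p = 0.381), and the 18 Rps2 rows spread from -0.04 to 0.32. Rows of 1 gene also differed in sign for Rpl12 (-0.16 to 0.09), Rpl7a (-0.11 to 0.02), Rplp0 (-0.15 to 0.05) and Rps15a (-0.34 to 0.09).

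The calls in cerebrum rested on few arrays. With cerebrum MCT 1, PS 1 or MCT 2 left out, 0 member rows passed the limma threshold, where 0.00%, 0.00% and 0.0157% of all rows did. The count was 6 without PS 2 (1.14% of all rows), 43 without MCT 3 (4.83%) and 53 without PS 3 (12.2%). When the striatum markers' mean entered the model, 0 member rows passed (0.00785% of all rows) and the member median was 0.01. The summed striatum level was lower on every PS array than on every MCT array. This fit therefore cannot tell striatum content and treatment apart. With a term for the sex pattern, 13 member rows fell and 2 rose (6.28% of all rows), from other genes in part. Only PS 1 and PS 3 had the high Xist level, so this term left PS 2 alone to set the PS difference from MCT. In that fit Rpl5 had -0.51 and Rps19 -0.46. The calls gained, in rows of Rpl15, Rpl34, Rplp1, Rps2, Rps20, Rps3a1 and Rps9, therefore rest on 1 PS array. This fit cannot show what PS does apart from the sex pattern over the whole PS group. The Rpl3 difference stayed between -0.79 and -0.54 in all 17 alternatives and was past the threshold in 12 of them. It was not past it with the striatum covariate (-0.79, limma adjusted p = 0.329), with replicate number as a block (limma adjusted p = 0.0919) or without MCT 1, MCT 2 or PS 1 (limma adjusted p = 0.133, 0.106 and 0.0822). The part of striatum content in these differences could not be tested apart from treatment.

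In heart, nearly the whole family was below the MCT level in PS mice, the small subunit most, but no member row passed the threshold. Of 377 tested rows, 339 had a log2 difference below 0, or 89.9%, against 42.0% of all 12736 rows tested, and the median was -0.33 against 0.06 over all. 0 member rows were called in limma at an adjusted p under 0.05, against 0.330% of all rows in either direction and 0.173% lower, and the smallest adjusted p of a member was 0.119. At an unadjusted limma p under 0.05 there were 167 member rows, against 23.7% of all rows. PS arrays were all below MCT arrays in 170 rows, or 45.1% against 11.2% of all rows, and all above in 0 rows against 17.2%. Among small-subunit rows 112 of 113 were below 0 with a median of -0.49, and among large-subunit rows 227 of 264 with a median of -0.30. The large-subunit rows include 41 of Rpl21 and 24 of Rpl29. By brightest row all 25 small-subunit genes and 64 of all 67 genes were below 0, with a median of -0.36 over the 67. These medians were -0.47 for small-subunit and -0.32 for large-subunit genes. Differences also varied with brightness, as given below, and the subunits were not compared at like brightness.

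Rps12, a small-subunit protein at the beak, had the largest gene difference in heart and read 10.28, 10.08 and 9.10 in MCT 1, 2 and 3 and 8.82, 8.98 and 8.77 in PS 1, 2 and 3. The PS arrays lay within 0.21 of one another, while MCT 3 lay more than 0.9 below MCT 2 and close to the PS arrays. The difference was -0.96 ± 0.28 (SE, n = 3 against 3; limma adjusted p = 0.134), and the lowest Rps12 row had -1.05. Rps21 followed the same order of arrays, with 9.77, 9.35 and 8.49 in MCT and 8.38, 8.40 and 8.28 in PS (-0.85 ± 0.29, limma adjusted p = 0.156).

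Rps15a read 10.07, 9.93 and 9.20 in heart MCT and 9.09, 8.74 and 8.89 in PS, a difference of -0.83 (limma adjusted p = 0.133), although 1 of its 3 rows had 0.06. Rps13 read 10.53, 10.28 and 9.53 in MCT and 9.54, 9.21 and 9.25 in PS, where PS 1 and MCT 3 overlapped, and Rps19 read 10.19, 10 and 8.83 against 9, 8.95 and 8.80, where MCT 3 fell among the PS arrays. Their differences were -0.78 and -0.76. MCT 3 was the lowest MCT array for each of these small-subunit members.

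Rpl24 and Rpl13 of the large subunit and Rps14 of the small subunit, all with smaller errors, were among the members nearest to the threshold. Rpl24 read 9.96, 9.82 and 9.36 in heart MCT and 9.03, 8.96 and 8.94 in PS (-0.74 ± 0.17, limma adjusted p = 0.119), with MCT 3 above all PS arrays. Rpl13 read 9.55, 9.4 and 9.09 in MCT and 8.71, 8.70 and 8.71 in PS, with all 3 PS arrays within 0.01. Its difference was -0.64 (limma adjusted p = 0.119). Rps14 read 10.44, 10.16 and 9.9 in MCT and 9.52, 9.49 and 9.52 in PS, again without overlap (-0.66, limma adjusted p = 0.119). Rpl41 of the large subunit read 11.91, 11.91 and 11.83 in MCT and 11.56, 11.50 and 11.54 in PS. Its MCT 3 value lay nearer to the other MCT arrays than to PS, and its difference stayed between -0.38 and -0.33 over the alternatives. It did not pass here, but 2 of its rows did with an intensity trend, where 0.448% of all rows were called.

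Some members did not differ by more than the spread between arrays in heart. Rpl3 read 10.63, 10.40 and 9.46 in MCT and 10.07, 10.40 and 10 in PS, so that the PS arrays lay inside the MCT range, with a difference of -0.01 ± 0.29. Rpl4, which lines the exit tunnel for the growing peptide, had 0.02, Rpl23 0.01 and Rpl21 0.04. The highest member row was a row of Rpl31 with 0.15, whose gene's 8 rows spread from -0.55 to 0.15. Rows also differed in sign for Rpl12 (-0.33 to 0.01), Rpl21 (-0.02 to 0.04) and Rpl3 (-0.03 to 0.02).

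One array decided whether the heart difference passed. Without heart MCT 3, 246 member rows of 54 genes fell, against 26.8% of all rows called, and Rps12 had -1.32 ± 0.12 (limma adjusted p = 0.00398). Without both arrays with the highest Myl7, MCT 3 and PS 3, 128 member rows of 36 genes fell, against 9.23% of all rows. With array weights 278 member rows fell, where 54.9% of all rows were called. Leaving out any other single heart array gave 0 member rows. Since heart MCT 3 is a control array with a level of most members close to PS, the values with and without it stand side by side here, and the reason for its level was not tested.

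The PS differences of the members in heart and cerebrum were then set against each other gene by gene, with the difference between them tested over all 12 arrays. No member row passed: 0 of 374 tested rows were called against 1.52% of all rows, 21 had an unadjusted limma p under 0.05 against 19.2% of all rows, and the smallest adjusted p was 0.0907. The median of heart minus cerebrum was -0.14 for the members and 0.07 over all rows. Rpl13 had the lowest p, with a PS difference of -0.64 in heart and -0.05 in cerebrum, where it read 8.19, 8.24 and 8.03 in MCT and 8.08, 8.04 and 8.20 in PS. The difference between tissues was -0.59 ± 0.17 (limma adjusted p = 0.0907). Rpl13a, a protein also known outside the ribosome as a translational repressor, had -0.62 (limma adjusted p = 0.117), Rps14 had -0.61 (limma adjusted p = 0.126) and Rpl34 had -0.79 (limma adjusted p = 0.216). A row of Rps2 had -0.70, and rows of 12 genes differed in sign, all with differences that did not pass. Rpl3 lay on the opposite side, with -0.67 in cerebrum and -0.01 in heart, and the difference of 0.67 ± 0.33 did not pass (limma adjusted p = 0.294). Rpl5, Rpl11 and Rpl9 had nearly equal values in both tissues: -0.58 and -0.55, -0.46 and -0.41, and -0.52 and -0.44 in cerebrum and heart. Without heart MCT 3, 38 member rows of 17 genes were lower in the heart comparison, against 12.8% of all rows called.

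**Figure D2:**
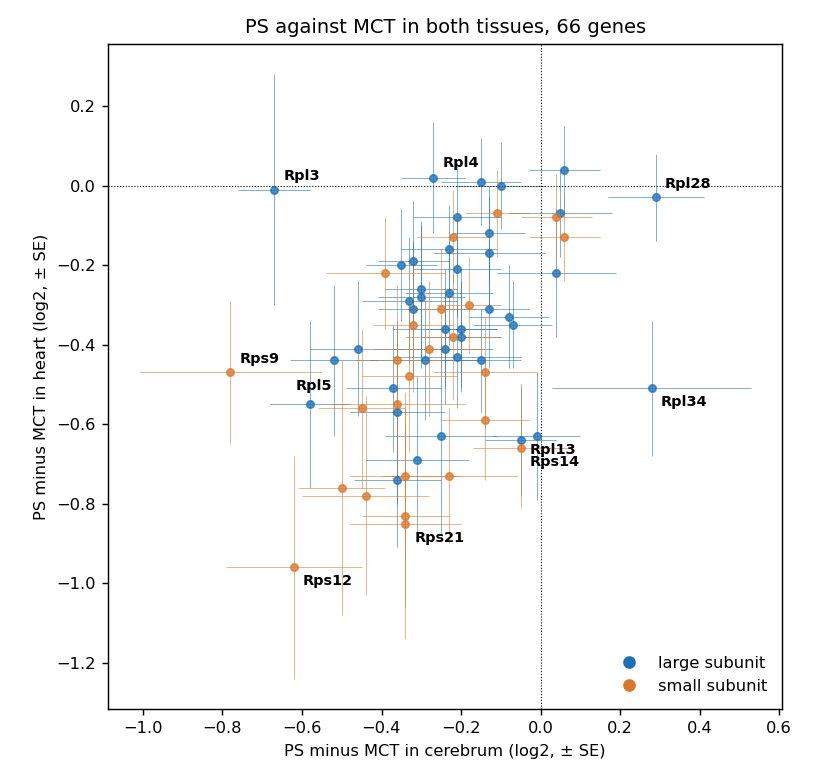
PS minus MCT log2 difference of each gene (brightest row) in cerebrum on the x axis and heart on the y axis, for 66 genes, with standard errors as lines and large- and small-subunit genes in different colours. Rpl3 stands alone at -0.67 in cerebrum and -0.01 in heart, and Rps12 is lowest in heart at -0.96.

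Heart held more ribosomal protein transcript signal than cerebrum for most genes in MCT mice, and Rpl3 was the gene that went the other way. Of 374 tested member rows, 235 were higher in heart (62.8% against 35.2% of all rows) and 6 were lower, all of them Rpl3 (limma adjusted p under 0.05; 40.3% of all rows were lower). The median log2 difference (heart minus cerebrum) was 0.53 for members and -0.07 over all 12734 rows. Heart arrays were all above cerebrum arrays in 222 rows, 59.4% against 36.9% of all rows. In the small subunit 99 of 113 rows were higher in heart, and in the large subunit 136 of 261. By gene, 45 of 66 were higher and 1 was lower, and the median was 0.81 for small-subunit and 0.43 for large-subunit genes.

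Rplp0, the base of the acidic stalk that recruits elongation factors and a common reference gene, read 9.92, 9.97 and 9.50 in cerebrum MCT and 11.45, 11.39 and 11.01 in heart MCT. The lowest heart array was more than 1 above the highest cerebrum array, and the difference was 1.49 ± 0.17 (SE, n = 3 against 3; limma adjusted p = 5.31e-05). Rps13 read 8.75, 8.84 and 8.42 in cerebrum and 10.53, 10.28 and 9.53 in heart (1.44 ± 0.25, limma adjusted p = 0.000661). Rps12 had 1.35 and Rps27, a zinc-finger protein of the small subunit, 1.31 (limma adjusted p = 0.00265 and 0.000267), and rows of Rps24 and Rps12 reached 1.52. A row of Rps2 had 1.5 (limma adjusted p = 6.62e-06), while its 18 rows, all past the threshold, ran from 0.43 to 1.5.

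At the other end, Rps15 had -0.11, Rpl4 -0.02, Rpl21 0.01 and Rps6, the substrate of the S6 kinases downstream of mTORC1, 0.03, none past the threshold. Rps6 read 12.30, 12.33 and 12.20 in cerebrum MCT and 12.39, 12.33 and 12.21 in heart MCT, which overlap. A p that misses the threshold does not show equal levels, and these rows were among the brightest on the arrays. Rows of 1 gene disagreed in call for Rpl12 (0.30 to 0.47), Rpl17 (0.15 to 0.63), Rpl19 (0.19 to 0.50), Rpl27a (-0.02 to 0.60), Rpl29 (0.16 to 0.41), Rpl31 (-0.49 to 0.57), Rpl6 (0.37 to 0.51) and Rplp1 (0.25 to 1.10), and in sign for Rps15 (-0.11 to 0.19).

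In PS mice the tissue difference had the same direction and was smaller at the median. Of 375 tested member rows, 237 were higher in heart (63.2% against 38.3% of all rows) and 7 were lower (37.6% of all rows), 6 of Rpl3 and 1 of Rpl31 (-0.31, limma adjusted p = 0.00768). The median was 0.39 for members and 0.02 over all rows. Rplp0 read 9.6, 9.78 and 9.61 in cerebrum PS and 11.12, 11.05 and 11.17 in heart PS, a difference of 1.45 ± 0.09 (limma adjusted p = 3.22e-06). Rps9 had 1.37 and Rpl7, an RNA-binding protein of the large subunit, 0.99. Rows of 1 gene disagreed in call or sign also for Rpl9 (0.19 to 0.34), Rpl28 (0.19 to 0.27), Rpl12 (-0.25 to 0.25), Rpl13a (-0.19 to 0.02), Rpl17 (-0.10 to 0.33), Rpl19 (0.19 to 0.29), Rpl21 (-0.03 to 0.09), Rpl27a (0.00 to 0.41), Rps15 (-0.03 to 0.19) and Rpl38 (-0.02 to 0.06). The counts held when arrays were left out, at 181 to 302 rows called in MCT mice and 209 to 251 in PS mice. The size depended on scaling. With quantile normalization, member rows below 0 went from 10 to 63 in MCT mice and from 20 to 93 in PS mice. Member medians were then 0.41 and 0.32, against 0.08 and 0.11 over all rows.

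**Figure D3:**
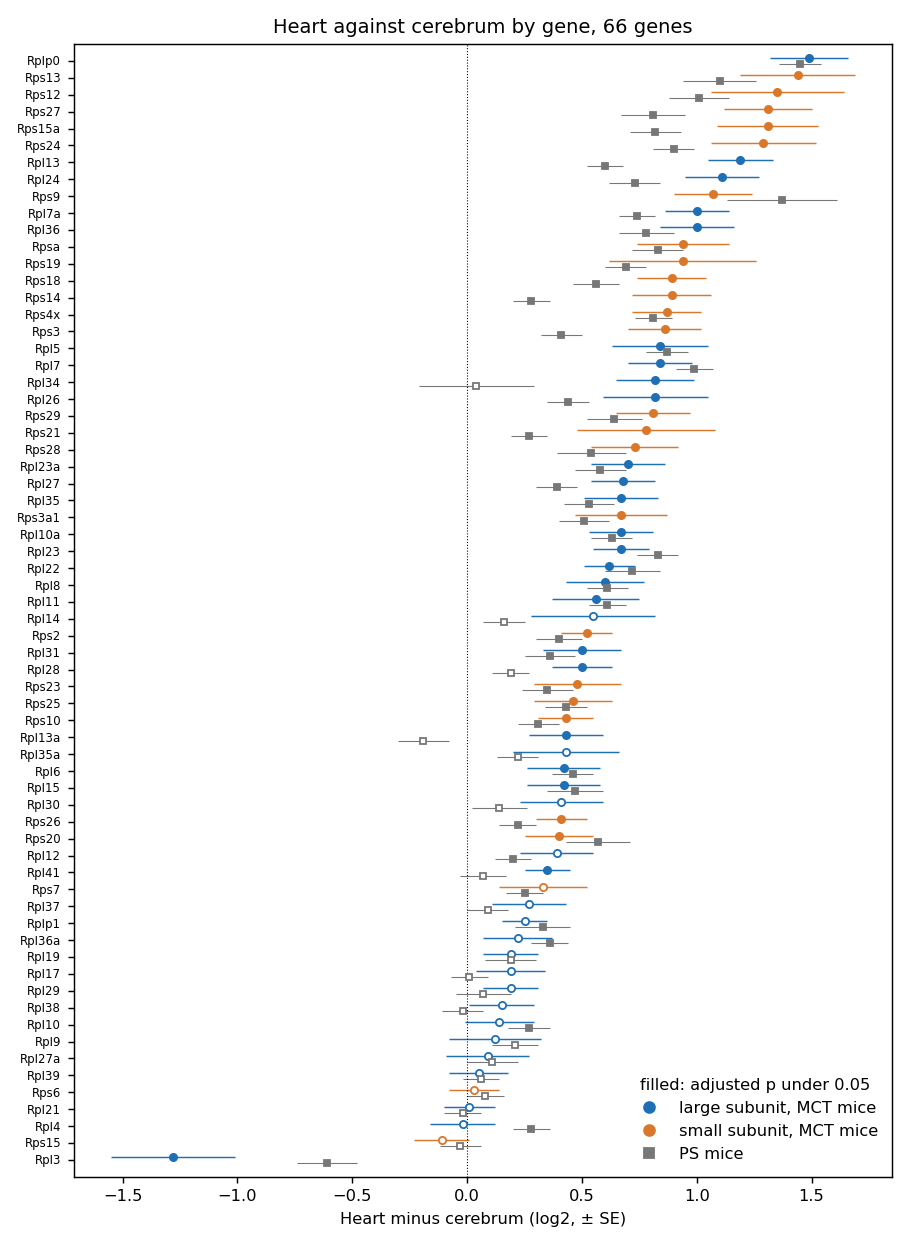
Heart minus cerebrum log2 difference of each of 66 genes (brightest row) with its standard error, in MCT mice (circles, coloured by subunit) and PS mice (grey squares); filled marks have a limma adjusted p under 0.05. In MCT mice Rplp0 is highest at 1.49, Rpl3 is the gene called lower at -1.28, and Rps6 lies at 0.03.

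Rpl3 was the member with the most distinct tissue pattern, and its muscle paralog Rpl3l, which replaces Rpl3 in ribosomes of striated muscle, was taken with it. Rpl3 was lower in heart by a log2 difference of -1.28 ± 0.27 in MCT mice (limma adjusted p = 0.00219) and by -0.61 ± 0.13 in PS mice (limma adjusted p = 0.00297). In MCT mice the 6 rows had -1.34 to -1.19. The 3 heart MCT arrays spread over more than 1, from 9.46 in MCT 3 to 10.63 in MCT 1, yet all were below the lowest cerebrum MCT array at 11.38. It was past the threshold in all 15 alternatives in each treatment, between -1.51 and -0.93 in MCT mice and between -0.73 and -0.54 in PS mice.

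Rpl3l read 3.82, 3.68 and 4.07 in cerebrum MCT, 3.67, 3.96 and 3.94 in cerebrum PS, 9.74, 9.81 and 9.90 in heart MCT and 9.96, 9.62 and 9.89 in heart PS. Heart was higher by 5.96 ± 0.13 in MCT mice (limma adjusted p = 2.93e-09) and by 5.97 in PS mice (limma adjusted p = 1.67e-08). In heart, PS and MCT arrays overlapped for Rpl3l, with a difference of 0.01 ± 0.13 (limma adjusted p = 0.98). Heart MCT 3, lowest for Rpl3, was not low for Rpl3l, where it had the highest of the 3 MCT values. The levels of the 2 genes come from different probes and are not set against each other.

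**Figure D4:**
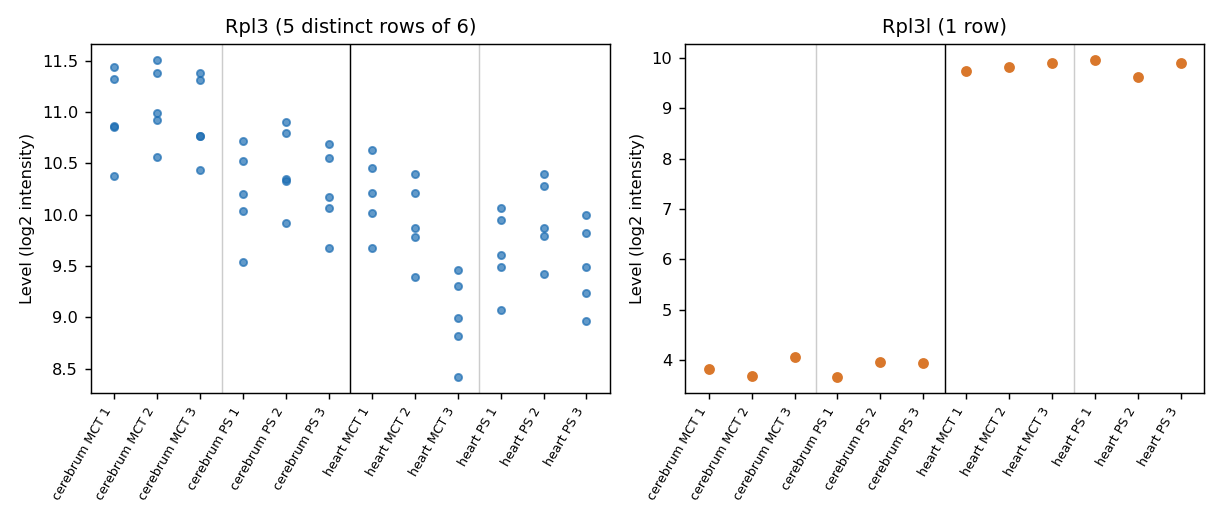
Log2 level of the Rpl3 rows (5 distinct rows of 6, 1 point each) and of the single Rpl3l row on each of the 12 arrays, by tissue and treatment. The brightest Rpl3 row goes from 11.38 to 11.51 in cerebrum MCT to 10.69 to 10.90 in cerebrum PS, and Rpl3l stays at 3.67 to 4.07 in cerebrum and 9.62 to 9.96 in heart.

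The size of the member differences varied with how bright the row was. In rows with a mean below 9 over the 12 arrays, the median log2 difference was -0.31 for PS in cerebrum, -0.68 for PS in heart and 1.16 for heart against cerebrum in MCT mice. In the 120 member rows at 11 or above, from 17 genes, the same medians were 0.04, -0.08 and 0.20. Rows of other genes had medians of -0.01, 0.08 and -0.16 below 9 and -0.06, 0.07 and 0.10 in the 151 rows at 11 or above. Their differences also spread less in bright rows. Below 9 their quartiles were -0.18 and 0.14, -0.14 and 0.27, and -1.04 and 0.65. At 11 or above they were -0.12 and 0.05, -0.08 and 0.18, and -0.21 and 0.66. With only the brightest row of each gene, the member medians were -0.31, -0.66 and 0.82 below 9 and -0.18, -0.16 and 0.19 at 11 or above. A large share of the bright rows belongs to Rpl21 and Rpl29, whose rows ran from 0.03 to 0.10 and from 0.00 to 0.08 for PS in cerebrum, and brightness depends on the probes as well as on the transcript. Whether brightness itself limits the differences was not tested.

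**Figure D5:**
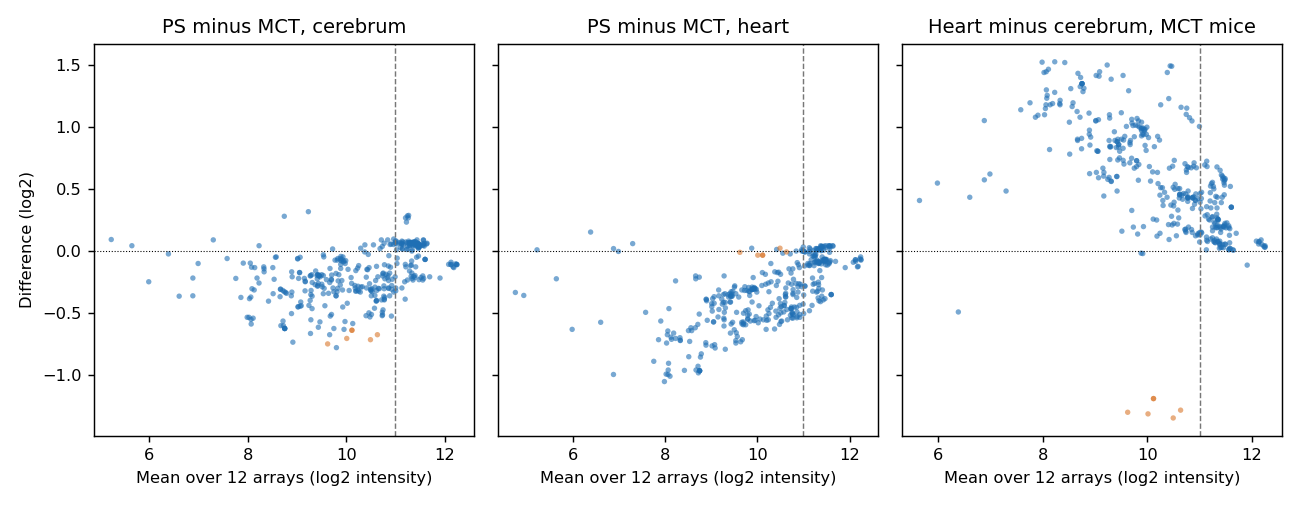
Log2 difference of every tested member row against its mean log2 level over the 12 arrays, with Rpl3 rows in orange and a dashed line at 11, for PS against MCT in cerebrum and in heart and for heart against cerebrum in MCT mice. Rows at 11 or above have medians of 0.04, -0.08 and 0.20, and rows below 9 have -0.31, -0.68 and 1.16.

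Rows of the same gene mostly gave like values. Over the 55 genes with several rows, the SD of the log2 difference among rows of a gene was 0.06 for PS in cerebrum and 0.08 for PS in heart, against 0.19 and 0.24 between gene means. For heart against cerebrum in MCT mice it was 0.12 against 0.44. Such rows may share probes or copies and are not replicates. The widest ranges among rows were 0.47 for Rps9 in cerebrum, 0.91 for Rps15a in heart and 1.07 for Rps2 between tissues.

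Lists of genes that work with the ribosomal proteins were read against the share of all rows called for PS, 5.76% in cerebrum and 0.330% in heart. Of 19 tested elongation factors and other TOP transcripts, 0 were called in cerebrum (median -0.11) and 0 in heart (median -0.03). The nearest in heart was Eef1b2, a nucleotide exchange factor for the elongation factor that delivers transfer RNA, at -0.58 (limma adjusted p = 0.126). Of the tested paralogs and fusion genes, 4 in cerebrum and 5 in heart, 0 were called, with Rps27l, a paralog of Rps27, at -0.93 in heart (limma adjusted p = 0.131). Between tissues in MCT mice, 11 of the 19 elongation and TOP genes were higher in heart and 2 lower, with a median of 0.49, where 35.2% of all rows were higher and 40.3% lower. The higher ones included the intermediate filament gene Vim at 1.60, and the lower ones were Eef1a1, the general elongation factor, at -0.68 and the histone chaperone Nap1l1 at -0.40. Of 5 paralogs 4 were higher in heart, Rpl3l, Rps27l at 2.55, Rps4l at 0.68 and Rpl7l1 at 0.35.

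Of 39 tested ribosome biogenesis factors in cerebrum, 2 fell and 1 rose with PS, a share near the 5.76% of all rows called. Rrs1, which builds the large-subunit particle that takes up Rpl5 and Rpl11, fell by 0.92 ± 0.16 on the log2 scale (limma adjusted p = 0.0342), and Nhp2, a protein of the particles that modify uridines of ribosomal RNA, fell by 0.45 ± 0.08 (limma adjusted p = 0.0342). Rrp9, a small-subunit processing factor, rose by 0.54 ± 0.08 (limma adjusted p = 0.0248). In heart 0 of 40 were called, and between tissues in MCT mice 9 of 39 were higher and 9 lower, both under the shares over all rows of 35.2% and 40.3%. Of 18 tested genes of the mTORC1 pathway, 1 rose with PS in cerebrum. Eif4ebp2, the main brain form of the repressor that mTORC1 switches off, read 8.10, 8.20 and 8.11 in MCT and 8.80, 8.77 and 8.74 in PS, a difference of 0.63 ± 0.07 without overlap (limma adjusted p = 0.0136). In heart 0 of 17 were called. Between tissues 5 of these 17 were higher in heart, among them Eif4ebp1 at 3.42, and 5 were lower, among them Rictor, a subunit of the second mTOR complex, at -1.12, shares that do not exceed those over all rows.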

How the data were processed

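Total RNA of 12 tissue samples was labelled and hybridised to whole-transcript arrays (labels' protocols). The authors deposited log2 values for 35556 rows, read as log2 intensity from their range of 1.9 to 13.11, with array medians of 4.89 to 5. Affymetrix Expression Console is the software that the submitters' processing notes name. For its version, background step, summary step and build, the notes give nothing (not given in the sources used here). Values were used as deposited. Arrays scaled to a common median cannot show a shift of all transcripts.

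Gene symbols came from the platform annotation, and rows with 1 symbol were used. Some items are not reported here. The labels gave each array its group. Linear models were fitted with limma 3.58.1 under R 4.3.3 (lmFit, then eBayes), each tissue apart for PS against MCT. Rows in the lowest 40 percent by mean over the fitted arrays were left out. P-values were Benjamini-Hochberg adjusted over all rows tested, with a threshold of 0.05. Errors of differences are limma standard errors. The number of arrays limits the precision, and p-values set each difference against the spread between arrays. The steps were tested on simulated data.

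Members and gene lists were chosen with earlier results of these data known. Named in full were, in each comparison, up to 6 called member rows per direction by lowest p, the 4 largest differences per direction, members whose rows differ in sign or call, up to 3 called list genes per direction, and Rpl3l. Rpl4, Rps6, Rpl11, Rpl13, Rpl41, Rps13, Rps14, Rps19, Rpl7 and Rps27 were in part added after their values were seen. Gene lists covered elongation and TOP genes, paralogs, biogenesis factors and mTORC1, and markers of striatum, atrium, lymphocytes, red blood cells (2 of 8 measured, 0 called for PS in either tissue), sex, heart and cerebrum. Alternatives changed scaling, filter, rows, variance model, array weights, the replicate block and the arrays.

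Deviations of same-numbered heart and cerebrum arrays of MCT mice had correlations of 0.114, 0.102 and 0.287 over rows. Those of unlike number ran from -0.248 to 0.191, so these values do not settle whether the numbers pair the samples. The values reported are from the fit without pairs. With the replicate number as a block, 262 member rows were called between tissues in MCT mice (7 lower, 255 higher) against 241 without. In PS mice the same-numbered heart and cerebrum values were 0.115, 0.0978 and 0.0543, all above those of unlike number, at -0.109 to 0.026. The value of 0.0978 belongs to heart PS 2 and cerebrum PS 2, which had opposite sex patterns. Values for MCT against PS within a tissue are given below.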

Additional observations from a re-analysis of the deposited data

Results flagged for a closer look

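Rrp1, a nucleolar ribosome biogenesis factor and not a ribosomal protein, was the one gene of the 4 lists around the ribosome and mTORC1 whose PS difference passed the test between tissues. These lists had 19, 5, 39 and 17 tested genes, and 1.52% of all rows passed, so 1 call is near that share. Rrp1 read 10.07, 9.93 and 10.09 in cerebrum MCT against 9.75, 9.61 and 9.69 in cerebrum PS. In heart it read 8.63, 8.74 and 8.66 in MCT against 9.05, 9.03 and 8.93 in PS. All PS arrays were below all MCT arrays in cerebrum and above them in heart. The difference of the 2 PS effects was 0.67 ± 0.13 (limma, adjusted p = 0.0277), while the single effects, -0.35 in cerebrum and 0.33 in heart, did not pass (limma adjusted p = 0.0534 and 0.153). Of the marker lists, 1 striatum gene (Rarb, 1.92, limma adjusted p = 0.0494) and 1 brain gene (Rbfox3, -0.92, limma adjusted p = 0.0437) passed the same test. In heart the treatment and the sex pattern of the arrays cannot be told apart.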

How the results depend on the processing

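With 3 arrays a group, single arrays decide calls, and signal of near-identical copies may be shared between rows. Of the 375 tested member rows, 15 were called for PS in cerebrum. The count was 48 with each array centred on its median (7.76% of all rows called), 32 with the filter at the 60th percentile (9.81%) and 6 with every row tested (0.886%). It was 4 of 66 with 1 row per gene symbol (5.91%), 30 with an intensity trend (7.05%) and 128 with array weights (26.8%). It was 0 with the striatum covariate, where the median was 0.01 instead of -0.20, but that covariate largely follows treatment. Leaving out 1 array gave 0 to 53 called rows and medians of -0.30 to -0.10.

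In heart, 0 rows were called, but 2 rows of Rpl41 with an intensity trend (0.448% of all rows). The count was 278 with array weights (54.9% of all rows) and 128 without MCT 3 and PS 3 (9.23%). With 1 array left out it was 0 to 246, with medians of -0.47 to -0.23. For the difference between tissues leaving out 1 array gave 0 to 38 rows and medians of -0.26 to -0.06. Heart against cerebrum gave 181 to 302 rows in MCT mice (medians 0.42 to 0.64) and 209 to 251 in PS mice (0.34 to 0.43). With 1 row per gene symbol 47 of 66 were called in each, where 76.5% and 76.3% of all rows were called in MCT and PS mice.

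The replicate block took the cerebrum count from 15 to 0. Same-numbered cerebrum arrays deviated with correlations of 0.113, -0.15 and -0.263, against -0.162 to 0.275 for unlike numbers. In heart the same-numbered values were 0.0325, 0.0858 and 0.122, all above those of unlike number, at -0.152 to 0.0216. What arrays of the same number share was not tested. The block changed no other count of member rows by more than 1.5 times, while in heart the count over all rows went from 42 to 88.

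With the striatum covariate, other cerebrum differences turned too, among them Rps28 from -0.36 to 0.18. The Rpl34 difference in cerebrum ran from -0.04 (without PS 2) to 0.48 over the arrays left out, and was -0.07 with the striatum covariate. In heart, with 1 array left out, Rpl3l ran from -0.06 to 0.11 (-0.03 without MCT 1 or PS 3), a row of Rpl31 from -0.10 to 0.29 and a row of Rps15a from -0.03 to 0.16 (-0.01 without MCT 3). The Rpl31 row had -0.09 with array weights. For the difference between tissues Rpl3l ran from -0.10 to 0.11, below 0 without heart MCT 1 (-0.03), PS 1 (-0.06) or PS 3 (-0.03) and cerebrum PS 1 (-0.09) or MCT 3. Among the single named differences in cerebrum, 193 of the values under alternatives kept their call, 59 lost it, 8 gained it and 2 reversed. The cause of these changes was not tested.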

Other observations

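60 further rows carry several gene symbols of which at least 1 is a ribosomal protein gene, and they entered no comparison above. Their signal cannot be given to 1 gene. In cerebrum 39 of the 60 had a PS minus MCT log2 difference below 0, with a median of -0.21, and in heart 54 of 60, with a median of -0.33. Between tissues in MCT mice 57 of 60 were higher in heart by value, with a median of 0.46. They include 3 genes that have no row of their own. The row naming Rpl32 had -0.30 in cerebrum and -0.37 in heart, the 4 rows naming Rpl37a had medians of -0.39 and -0.33, and the 3 rows naming Rps16, a small-subunit protein, had medians of -0.11 and -0.52. The medians over all 60 rows lie near those of the single-symbol members, -0.20 in cerebrum and -0.33 in heart, while those of single genes scatter around them. None was tested.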
